A study of Capra hircus with 2 samples.

Results

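ADAMTS1, ADAMTS5 and NRIP1 are genes tied to ovulation and matrix cleavage, and they were chosen by name for those roles, as 3 of the 154 complete gene rows of the deposited table. The data are single-cell transcriptomes of ovarian granulosa cells, the somatic cells around the oocyte, from Ji'ning grey goats. One library, called HF below, came from goats of high fertility, with more than 3 kids per birth, and the other, called LF, from goats of low fertility, with fewer than 2. Neither the number, the age nor the cycle stage of the goats is given in the sources used here. Cells were dissociated with the enzyme TrypLE, and both libraries were made with droplets and a 3' kit that counts unique molecular identifiers (UMIs), each standing for 1 captured transcript. The HF library held 7106 cells and 63769786 UMIs, with a median of 7214.5 UMIs per cell. The LF library held 3345 cells and 45674506 UMIs, with a median of 11080 UMIs per cell. With 1 library per group no test between groups is possible, and a difference between fertility groups cannot be told apart from one between goats, dissections or library preparations. The intervals below are 95% intervals that cover counting error only. None of the 8 granulosa markers listed for a check of the cell type is among the 154 genes, so the labelled cell type was not checked. Between them the libraries shared 27 cell barcodes, which is 0.38% of the HF barcodes and 0.807% of the LF barcodes.

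Before ovulation, the surge of luteinizing hormone makes the granulosa and cumulus cells build and then remodel a matrix rich in hyaluronan and the proteoglycan versican. ADAMTS1 is a secreted metalloprotease that cleaves versican and is induced in granulosa cells through the progesterone receptor, and female mice that lack it release fewer oocytes. ADAMTS5 is a related secreted protease, known mainly as an aggrecanase of cartilage, that cleaves versican as well. NRIP1, also called RIP140, is a nuclear corepressor that binds hormone receptors, and female mice without it fail to release their oocytes. ADAMTS5 and ADAMTS1 are neighbouring rows of the table, with 0 protein-coding genes between them on chromosome 1 in the RefSeq annotation of the goat assembly ARS1.2, and 12 rows lie between ADAMTS1 and NRIP1.

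ADAMTS1 was detected in few cells but reached high counts in some of them. The HF library held 863 UMIs of it in 417 cells, 5.87% of the cells (5.33% to 6.44%). The LF library held 292 UMIs in 113 cells, 3.38% of the cells (2.79% to 4.05%). The count in single cells went up to 18 UMIs in HF and 35 UMIs in the LF library. Had all cells of a library carried ADAMTS1 at the same rate per UMI, 786 cells of HF and 271 of the LF library would have had a UMI, so detection stood at 0.53 and 0.417 of that number. Over the 101 genes whose UMIs summed to 100 or more over the libraries, the median of this quotient was 0.976 in either library. ADAMTS1 had the 3rd lowest quotient in the HF library, after CCDC80 and COL8A1, and the lowest in the LF library.

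A small number of cells therefore set the summed level of ADAMTS1. In the HF library 68 cells held at least 50% of its UMIs, and in the LF library 14 cells did. The 34 cells with 5 or more UMIs, 0.478% of the HF cells (0.332% to 0.668%), carried 36.3% of the ADAMTS1 UMIs there. The 15 such cells of the LF library, 0.448% of its cells (0.251% to 0.739%), carried 52.1%. Those shares of cells overlapped between the libraries. They did not overlap for cells of lower count. Cells with 1 UMI made up 3.88% of the HF cells (3.45% to 4.36%) and 2.15% of the LF cells (1.69% to 2.70%), and cells with 2 to 4 made up 1.51% (1.24% to 1.82%) and 0.777% (0.508% to 1.14%).

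The cells with the highest ADAMTS1 counts were not all deep cells. The cell with 35 UMIs in the LF library had a depth of 14338 UMIs, at percentile 67.8 of its library, and ADAMTS1 stood at 2441 CPM, its UMIs per 1000000 UMIs of the cell. A cell of the HF library with 15 ADAMTS1 UMIs had a depth of 8341 UMIs, at percentile 61.3 of its library. As a class, cells with more ADAMTS1 were deeper, with median depths in the HF library of 7123 UMIs in cells without it, 8704.5 UMIs in cells with 1 UMI and 19626 UMIs in cells with 5 or more. In the LF library these medians were 10876.5, 15336.5 and 20616 UMIs. Classes set by a count are deeper for any gene, since counts grow with depth. HF cells with any UMI of ADAMTS1, NRIP1 and ADAMTS5 had median depths of 10309, 10259 and 10830.5 UMIs. The part of doublets in the ADAMTS1 counts was not tested.

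NRIP1 was spread over cells with 1 or 2 UMIs each. Its 129 UMIs in the HF library lay in 126 cells, 1.77% of the cells (1.48% to 2.11%), and its 101 UMIs in the LF library lay in 100 cells, 2.99% of the cells (2.44% to 3.62%). Detection stood at 0.991 and 1.02 of the number that an equal rate in all cells would give, a quotient that lies near 1 for any gene with about 1 UMI per positive cell. ADAMTS5 was scarce, with 56 UMIs in 50 cells of HF and 14 UMIs in 12 cells of the LF library, 0.704% (0.523% to 0.927%) and 0.359% of the cells (0.186% to 0.626%). Its quotients were 0.899 and 0.86, with at most 3 UMIs in a cell.

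**Figure D1:**
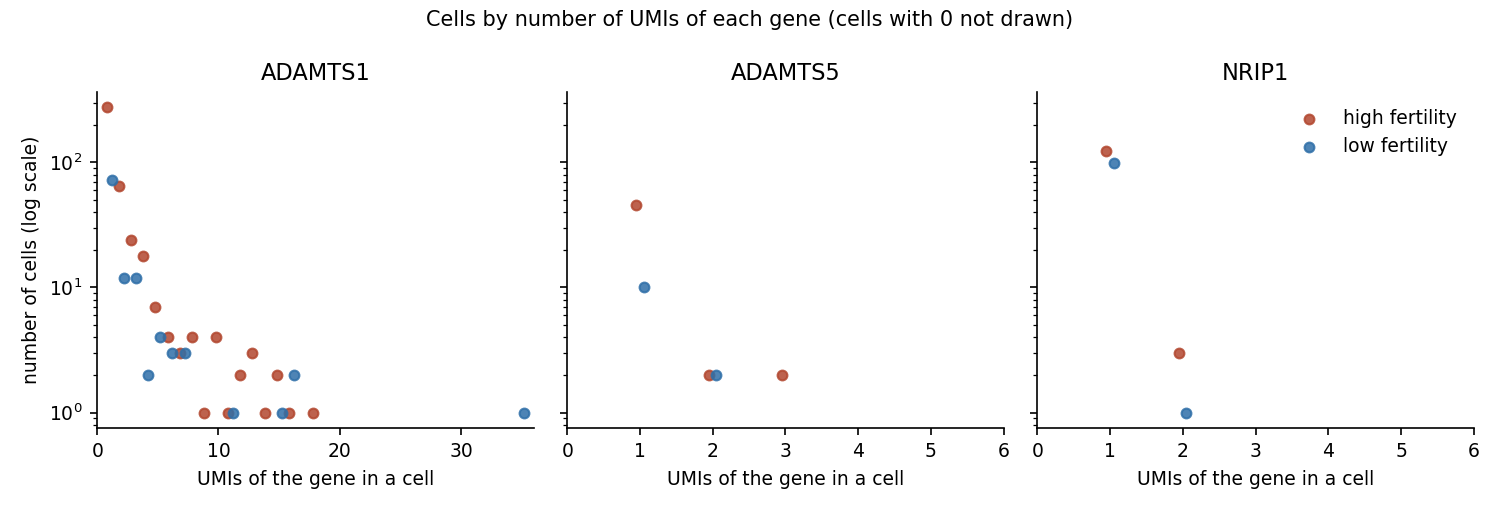
Number of cells (log scale) against the number of UMIs of ADAMTS1, ADAMTS5 and NRIP1 in a cell, for the HF and LF libraries. ADAMTS1 runs up to 18 UMIs in HF and 35 UMIs in the LF library, while NRIP1 stops at 2 and ADAMTS5 at 3.

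Levels were compared between the libraries within each gene, as the CPM of the summed UMIs of a library. ADAMTS1 stood at 13.5 CPM (12.6 to 14.5) in HF and 6.39 CPM (5.68 to 7.17) in the LF library, a ratio HF over LF of 2.12 (1.85 to 2.43). For ADAMTS5 the levels were 0.878 CPM (0.663 to 1.14) and 0.307 CPM (0.168 to 0.514), and the ratio was 2.86 (1.57 to 5.57), which rests on 14 UMIs in the LF library. For NRIP1 they were 2.02 CPM (1.69 to 2.40) and 2.21 CPM (1.80 to 2.69), with a ratio of 0.915 (0.70 to 1.20), so a difference was not detectable at this depth. Of the 2 members with at least 100 UMIs, ADAMTS1 was past 2-fold, with the HF library above, and NRIP1 was not. Across all 101 such genes 6.93% were past 2-fold with HF above and 1.98% with LF above. Besides ADAMTS1, those with HF above were FILIP1L at 3.02, CCDC80 at 2.94, APP at 2.65, COL8A1 at 2.43, LSAMP at 2.30 and HUNK at 2.30. The HF excess was therefore not particular to ADAMTS1. Under median-of-ratios scaling the ADAMTS1 ratio was 1.89 (1.65 to 2.17), no longer past 2-fold, and 5.94% of genes were past it with HF above and 3.96% with LF above.

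Because few cells carry many ADAMTS1 UMIs, the interval of its summed ratio is too narrow. Counting each cell with a UMI once, in place of its UMIs, per summed UMI of the library, gave a ratio of 2.64 (2.14 to 3.28). This is not a ratio of the shares of cells, which were 5.87% and 3.38%. For genes found in most cells it is raised by the lower depth of the HF cells. ENSCHIG00000011680, found in 99.6% and 99.4% of the cells, had 1.52 by it and 0.941 by UMIs. Without the cells that held 10 or more ADAMTS1 UMIs, 15 in HF and 5 in the LF library, the UMI ratio of ADAMTS1 was 2.42 (2.06 to 2.85). By cells with a UMI per summed UMI the ratio was 2.98 (1.57 to 6.16) for ADAMTS5 and 0.902 (0.689 to 1.19) for NRIP1.

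HF had the higher ADAMTS1 level in 8 of 8 bins of cell depth, and the gap varied between bins. Whether the gap depends on depth was not tested. In cells of 10000 to 15000 UMIs the level was 13.2 CPM (11.3 to 15.3) in HF and 8.30 CPM (6.69 to 10.2) in the LF library. Of the 92 LF UMIs there, 1 cell held 35 and another held 15. In cells of 15000 to 20000 UMIs it was 16.9 CPM (14.1 to 20.2) against 1.78 CPM (0.976 to 2.99), the latter on 14 UMIs. In the shallowest cells, below 2500 UMIs, the libraries could not be told apart, with 5 and 3 UMIs. In cells of 5000 to 7500 UMIs the interval of the ratio also held 1, at 1.58 (0.885 to 3.07). Kept to cells of 15000 UMIs or fewer, the ratio was 1.54 (1.27 to 1.88). The LF cells with 35 and 15 UMIs enter this ratio, and its value without them was not computed. ADAMTS5 too was higher in HF in 8 of 8 bins, on at most 12 UMIs per bin, and each bin ratio that could be computed had an interval that held 1. NRIP1 was higher in HF in 3 bins and in LF in 5.

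**Figure D2:**
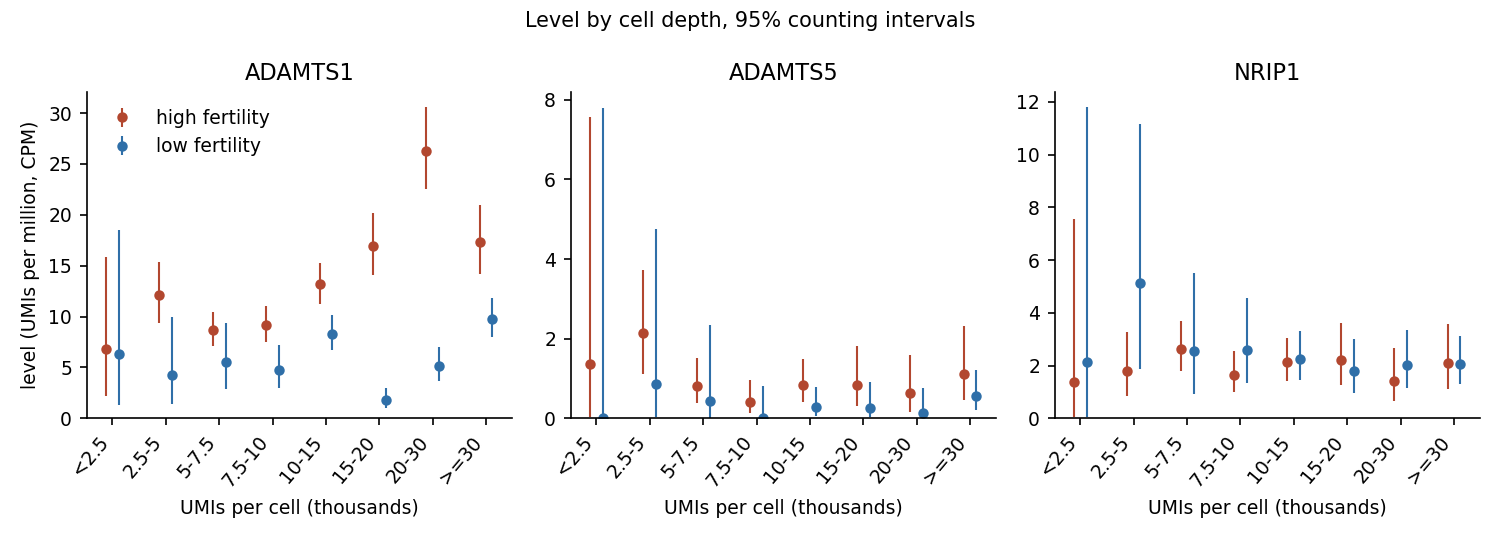
Level in CPM of ADAMTS1, ADAMTS5 and NRIP1 in 8 bins of UMIs per cell, for the HF and LF libraries, with 95% counting intervals. ADAMTS1 lies higher in HF in all 8 bins, while the NRIP1 intervals overlap in every bin.

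Shares of cells were also compared after each cell was reduced to 2000 UMIs, which left out 209 cells of HF and 132 of the LF library. ADAMTS1 was then expected in 1.89% of the HF cells (1.59% to 2.25%) and 0.811% of the LF cells (0.529% to 1.18%). NRIP1 was expected in 0.405% (0.27% to 0.586%) and 0.495% (0.285% to 0.807%), the LF share still the larger but now with overlapping intervals. ADAMTS5 was expected in 0.179% (0.0899% to 0.304%) and 0.0653% (0.00754% to 0.225%), shares whose intervals overlapped.

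The 3 genes were rarely seen in the same cell. Of the HF cells 92.0% had none of them, 544 had 1, 23 had 2 and 1 had all 3. Of the LF cells 93.4% had none, 215 had 1, 5 had 2 and 0 had all 3. To set co-detection against depth, each library was divided into 20 bins of equal cell number by depth, and the cells expected to hold both genes were summed over the bins as if the genes were unrelated within a bin. ADAMTS1 and NRIP1 met in 17 HF cells where 11.5 were expected, a ratio of 1.48 (0.862 to 2.37), and in 4 LF cells where 6.28 were expected, a ratio of 0.637 (0.173 to 1.63). The neighbours ADAMTS1 and ADAMTS5 met in 7 cells where 4.78 were expected (1.46, 0.589 to 3.02) and in 1 cell where 0.898 were expected (1.11, 0.0282 to 6.21). ADAMTS5 and NRIP1 met in 2 cells where 1.39 were expected and in 0 where 0.736 were. The interval of every one of these cell ratios held 1, so neither association nor avoidance was detectable in cells at this depth. By UMIs against cells without the partner gene, ADAMTS5 had 11 UMIs in HF cells with ADAMTS1 where 5.23 were expected (2.10, 1.05 to 3.76) and 2 in LF where 1.14 were (1.75, 0.212 to 6.32). A single HF cell held 3 of the 11, and 1 LF cell held both UMIs there. The HF interval lies close to 1, and the ratio without that cell was not computed. ADAMTS1 had 43 UMIs in HF cells with NRIP1 where 30.6 were expected (1.41, 1.02 to 1.89), and 28 (0.917, 0.61 to 1.33) without 1 cell that held 15. In LF cells with NRIP1 it had 8 where 17.3 were expected (0.462, 0.199 to 0.91), and 3 (0.173, 0.0357 to 0.506) without 1 cell that held 5. If depth were ignored, 7.39 cells with both ADAMTS1 and NRIP1 would have been expected in the HF library.

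The cell of the HF library with all 3 genes had 1 UMI of ADAMTS1, 3 of ADAMTS5 and 1 of NRIP1 at a depth of 6773 UMIs, with 2 UMIs of FILIP1L and 3 of CCDC80. The LF cell with both proteases had 6 UMIs of ADAMTS1 and 2 of ADAMTS5 at a depth of 31239 UMIs. The same cell held 22 UMIs of COL8A1, a chain of type VIII collagen, out of 175 in that library.

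The other 153 genes were then compared between cells with and without a member at matched depth. For each gene, the UMIs expected in cells with the member were taken from its rate per UMI in cells without the member, in the same 20 depth bins, and the gene was used if at least 10 UMIs were expected in both libraries. Expected values were treated as fixed and the UMIs of 1 cell as independent, and both make these intervals too narrow. The second matters most for genes whose UMIs gather in few cells, such as CCDC80, with a detection quotient of 0.446 in HF. Ratios by cells are given below for comparison. A gene was counted when it stood 2-fold or more from the expected value in the same direction in both libraries, with both intervals clear of 1. For ADAMTS1, 63 genes could be used, and 4 of them (6.35%) were higher and 2 (3.17%) lower. In cells of 15000 UMIs or fewer 29 genes could be used and 0 were higher and 0 lower by this rule. The 4 genes counted as higher had fewer than 10 expected UMIs in the LF library there. They could not be counted in that setting, so its 0 does not bear on them. The same comparison made in turn with each of 83 genes found in at least 50 cells of both libraries and in under 50% of the cells gave 6156 gene pairs, of which 1.36% were higher and 1.71% lower. Of the other 82 genes, 5 had more than 4 genes higher in their cells and 6 had as many, while the median was 0. The median ratio of the 63 genes was 1.06 in HF and 1.02 in the LF library.

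FILIP1L, DCBLD2, CCDC80 and CD200 were the genes higher in cells with ADAMTS1. FILIP1L, named for its likeness to a partner of filamin A, had 323 UMIs where 112 were expected in the HF library, a ratio of 2.89 (2.59 to 3.23), and 59 where 15.5 were expected in LF, a ratio of 3.80 (2.89 to 4.90). For DCBLD2, which spans the cell membrane, the ratios were 2.59 (2.31 to 2.90) and 2.39 (1.87 to 3.00). CCDC80, a secreted protein of the extracellular matrix, had ratios of 3.48 (3.23 to 3.74) and 2.38 (1.83 to 3.04). CD200, a membrane glycoprotein that signals to myeloid cells, had ratios of 2.03 (1.75 to 2.34) and 2.61 (2.0 to 3.35). The next in order, all under 2-fold, were the anti-proliferative gene BTG3 at 1.54 and 1.61, the ubiquitin ligase gene CBLB at 1.32 and 1.52 and PROS1, which encodes protein S, at 1.31 and 1.33. The named set closed with ENSCHIG00000002425 at 1.25 and 1.34, QTRT2, a subunit of a tRNA-modifying enzyme, at 1.25 and 1.32, and ENSCHIG00000022648 at 1.65 and 1.22, all with an interval that held 1 in the LF library.

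Counted as cells, FILIP1L had a UMI in 123 of the 417 HF cells with ADAMTS1, against 57.8 expected if the genes were unrelated within depth bins, and in 27 of the 113 LF cells against 12. These ratios were 2.13 (1.77 to 2.54) and 2.25 (1.48 to 3.27). For CCDC80 the ratios of cells were 1.69 (1.41 to 2.01) and 1.67 (1.14 to 2.37), and for DCBLD2 1.86 (1.55 to 2.21) and 1.46 (0.998 to 2.06). Where cells with a UMI replaced UMIs in the comparison with cells lacking ADAMTS1, FILIP1L alone was counted as higher. In the LF library the excess lay in deep cells for CCDC80 and CD200: in cells of 15000 UMIs or fewer they stood at 0.608 (0.166 to 1.56) and 1.17 (0.503 to 2.30), while FILIP1L stood at 2.46 (1.13 to 4.68) and DCBLD2 at 2.18 (1.09 to 3.91). In the HF library all 4 stood at 2.08 or more in those cells.

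The excess was seen with 1 UMI of ADAMTS1 and was not confined to the cells of high count. FILIP1L stood at 2.23 times the expected level (1.88 to 2.62) in the 276 HF cells with 1 ADAMTS1 UMI, at 3.92 (3.26 to 4.67) in the 107 cells with 2 to 4 and at 3.74 (2.78 to 4.94) in the 34 cells with 5 or more. In the LF library the values were 2.17 (1.34 to 3.31), 6.42 (4.12 to 9.56) and 6.61 (3.62 to 11.1) in 72, 26 and 15 cells. CCDC80 in the HF library was at 3.15, 3.95 and 3.70 in the same order. DCBLD2 in the LF library stood at 1.84, 4.32 and 1.32, the last on 5 UMIs.

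**Figure D3:**
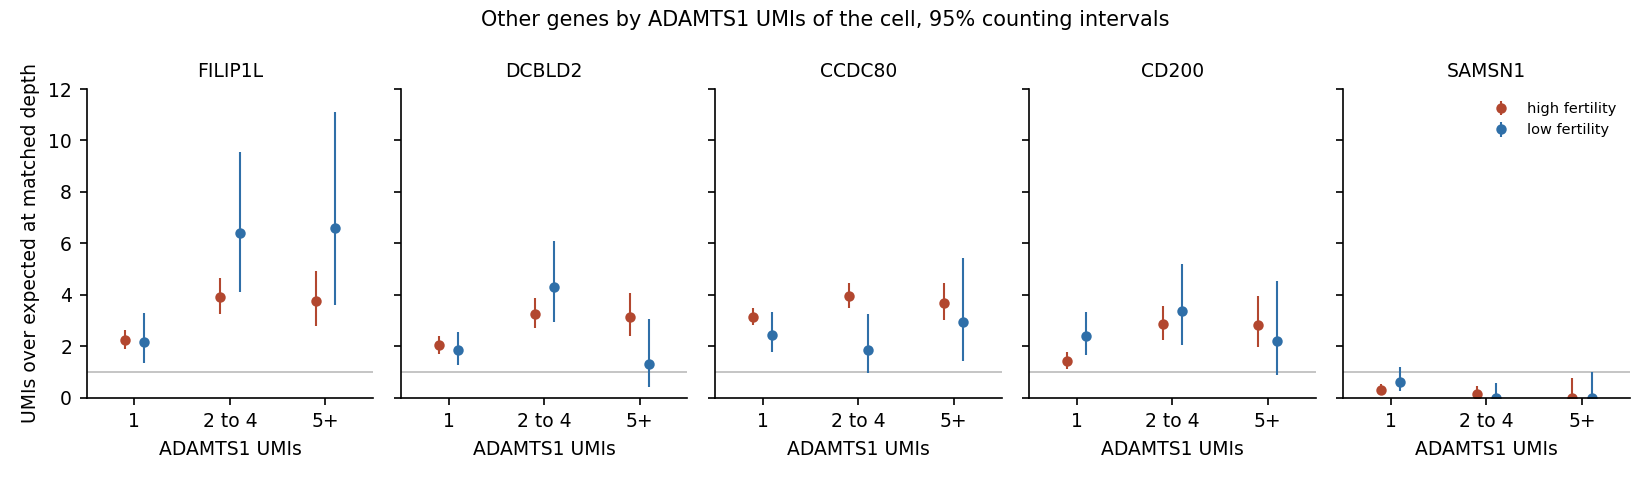
UMIs of FILIP1L, DCBLD2, CCDC80, CD200 and SAMSN1 over the number expected at matched depth, in cells with 1, 2 to 4 and 5 or more ADAMTS1 UMIs, for both libraries with 95% counting intervals. FILIP1L lies above 1 in all 3 classes of both libraries, and SAMSN1 at or below 0.622 in all of them.

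SAMSN1 and ENSCHIG00000015902 were the genes lower in cells with ADAMTS1. SAMSN1, an adaptor gene of blood cells, had 14 UMIs where 60.5 were expected in HF (0.231, 0.126 to 0.388) and 9 where 24.5 were expected in the LF library (0.368, 0.168 to 0.698). ENSCHIG00000015902, with which the files pair no symbol, had 6 UMIs in each library against 29.5 and 16.1 expected (0.203 and 0.373). ROBO2, a guidance receptor, was at 0.361 (0.173 to 0.665) in HF and 0.713 (0.308 to 1.40) in the LF library. NXPE3 stood at 0.584 and 0.734, TIAM1, an activator of the GTPase RAC, at 0.743 and 0.673, and ENSCHIG00000007885 at 0.75 and 0.409, each with an interval that held 1 in at least 1 library.

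Seen from the other side, ADAMTS1 was low in cells with SAMSN1. SAMSN1 was chosen on these same cells, so for ADAMTS1 this restates the overlap above and is no separate reference. ADAMTS1 had a UMI in 10 of the 583 HF cells with SAMSN1, 1.72% (0.826% to 3.13%), against 6.24% of the other cells, at median depths of 7411 and 7202 UMIs. In the LF library the share was 3 of 366 cells, 0.82% (0.169% to 2.38%), against 3.69%, at median depths of 12071.5 and 10928 UMIs. At matched depth the ADAMTS1 level in cells with SAMSN1 was 0.171 (0.0882 to 0.298) and 0.0853 (0.0176 to 0.249) of that in the others. NRIP1 was found in 13 of 583 and 14 of 366 of these cells, with ratios of 1.27 (0.675 to 2.17) and 1.33 (0.73 to 2.24). ADAMTS5 had 0 UMIs in these cells, where 4.93 and 1.71 were expected, and 0 of 583 cells allows a share of up to 0.631% with a UMI (exact binomial interval), which does not limit the share expressing the gene. As no cell class could be named from the 154 genes, these cells are not called leukocytes. How many cells would carry a UMI of these 3 genes from free RNA was not measured.

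NRIP1 had no gene past either bound. Of the 55 genes usable for NRIP1, 0 (0%) were 2-fold higher and 0 (0%) were 2-fold lower in both libraries, where all gene pairs gave 1.36% and 1.71%. In cells with NRIP1, no gene had both intervals clear of 1 in the same direction. Of the other genes compared in turn, 59 also had 0 genes higher in their cells and 23 had more, with a median of 0. Having 0 genes higher is therefore common among these genes and not particular to NRIP1. Genes were ordered by the lesser of the 2 ratios for the highest and by the greater for the lowest, so a gene low in 1 library alone is not named. First in cells with NRIP1 were TMEM50B at 1.55 (1.05 to 2.22) and 1.39 (0.917 to 2.02) and C3orf38 at 1.36 and 1.46. SOD1, the cytosolic superoxide dismutase, was at 1.13 and 1.24, the methyltransferase subunit gene N6AMT1 at 1.36 and 1.11 and NFKBIZ, a regulator of the NF-kB response, at 1.19 and 1.09. The remaining 5 of the 10 highest, NIT2, SAMSN1, ENSCHIG00000022046, IFT57 and IFNGR2, lay between 1.02 and 1.42 in both libraries. The lowest in both libraries by this order were CIP2A, an inhibitor of protein phosphatase 2A, at 0.723 and 0.636, ENSCHIG00000008043 at 0.723 and 0.769, NAA50 at 0.714 and 0.824 and CGGBP1 at 0.761 and 0.884, followed by TOMM70 and USP16 between 0.881 and 0.936. CCDC80 stood at 1.82 (1.53 to 2.14) in HF cells with NRIP1, where 24 of its 144 UMIs came from 1 cell, and at 0.766 (0.468 to 1.18) in LF.

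**Figure D4:**
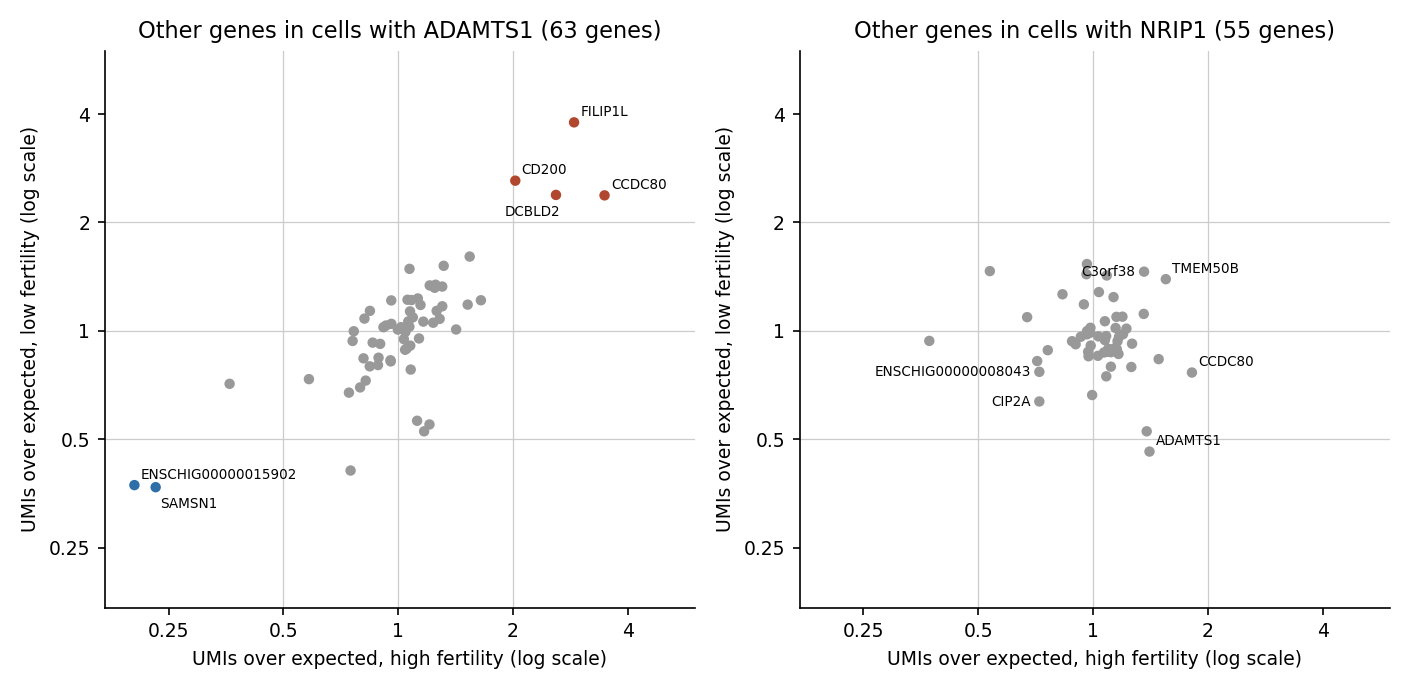
UMIs of each other gene over the number expected at matched depth in cells with ADAMTS1 (left, 63 genes) or NRIP1 (right, 55 genes), in HF (x axis) against the LF library (y axis), both log scales, with lines at 0.5, 1 and 2. FILIP1L, DCBLD2, CCDC80 and CD200 lie above 2 and SAMSN1 and ENSCHIG00000015902 below 0.5 on both axes for ADAMTS1, and no gene does so for NRIP1.

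ADAMTS5 was found in too few LF cells for the same comparison, and its values in the HF library alone describe 50 cells. FILIP1L had 63 UMIs in them where 17.6 were expected, a ratio of 3.58 (2.75 to 4.58), and was detected in 25 of the 50 cells against 7.10 expected. COL8A1 stood at 2.59 (1.72 to 3.74), CD200 at 2.28 (1.54 to 3.26) and CCDC80 at 2.07 (1.63 to 2.60). These were the 4 genes 2-fold or more higher with an interval above 1 among the 40 with at least 10 expected UMIs (10%), whose median ratio was 1.16. The share of all gene pairs past this looser rule, in HF alone, was not computed. The 10% can therefore not be set against the shares above, which need both libraries, or read as a trait of ADAMTS5. A single cell held 13 of the 28 COL8A1 UMIs, 11 of the 30 CD200 UMIs and 28 of the 74 CCDC80 UMIs, each gene taken by itself. As cells their ratios were 2.02 (0.87 to 3.97), 1.72 (0.915 to 2.94) and 1.21 (0.605 to 2.17), all with an interval that held 1, while that of FILIP1L was 3.52 (2.28 to 5.20). In the LF library FILIP1L was detected in 5 of the 12 cells with ADAMTS5, where 1.21 were expected (4.14, 1.34 to 9.65).

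Of the 28 genes listed for the response of the follicle to luteinizing hormone only ALCAM, a cell adhesion molecule, is among the genes analysed here, and of 12 listed nuclear receptors and cofactors none is. ALCAM stood at 1.42 (1.17 to 1.70) in HF cells with ADAMTS1 and at 1.01 (0.577 to 1.64) in LF. Of 18 listed matrix genes, CCDC80, COL8A1, FSTL1 and BOC are present, and CCDC80 was the one that reached 10 expected UMIs in both libraries for ADAMTS1. COL8A1 missed that bound, with 157 UMIs against 70.6 expected in HF (2.22, 1.89 to 2.60) and 48 against 9.28 in the LF library, where 22 came from the single cell described above. As cells the COL8A1 ratios were 1.97 (1.52 to 2.52) and 2.35 (1.25 to 4.01). FSTL1, a secreted follistatin-like protein, had 46 UMIs against 26.9 (1.71, 1.25 to 2.28) and 14 against 9.75 (1.44, 0.785 to 2.41), and BOC had 1 UMI in each library. Of the markers of other cell types, the endothelial JAM2 had 5 and 0 UMIs in cells with ADAMTS1 where 1.51 and 0.344 were expected, the surface epithelial UPK1B 3 and 1, and the leukocyte genes CD96 and CD80 together 1 and 0. The part of such cells in the ADAMTS1 level was not tested beyond these counts.

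Among the neighbours on the chromosome, APP, the amyloid precursor protein gene in the row after ADAMTS1, had a library ratio of 2.65 (2.02 to 3.52), and ADAMTS5 in the row before one of 2.86. The next rows outward were closer to 1, at 1.15 (0.855 to 1.56) for GABPA and 1.10 (0.962 to 1.27) for N6AMT1. In HF cells with ADAMTS1, APP had 53 UMIs where 18.2 were expected (2.91, 2.18 to 3.81), no more than 2 of them in a cell, and it was found in 47 cells against 20.1 expected. In LF cells with ADAMTS1 it had 2 UMIs where 3.19 were expected (0.626, 0.0759 to 2.26). N6AMT1 stood at 0.811 and 0.839 in cells with ADAMTS1. SAMSN1, the row after NRIP1, had a ratio of 1.09 (0.654 to 1.70) and 1.42 (0.968 to 2.02) in cells with NRIP1.

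ENSCHIG00000012599, an abundant gene whose deposited values fall into a low and a high mode split at 2.5, divided the ADAMTS1 UMIs in opposite ways in the libraries. In the HF library ADAMTS1 stood at 16.4 CPM in the 3236 cells of the high mode and 10.3 CPM in the 3870 of the low mode, a ratio at matched depth of 1.55 (1.42 to 1.68). In the LF library it stood at 4.45 CPM in 2245 and 11.6 CPM in 1100 cells, a ratio of 0.346 (0.293 to 0.407). Within the high mode the ADAMTS1 ratio HF over LF was 3.70 (3.08 to 4.46), and within the low mode 0.883 (0.722 to 1.08). The low mode value rests on few cells, as 9 LF cells with 5 or more UMIs held 100 of the 144 UMIs there. Counting cells with a UMI per summed UMI of the mode, the ratio was 2.95 (2.25 to 3.91) within the high mode and 2.03 (1.44 to 2.91) within the low mode. By cells at matched depth, the split within the HF library was 1.06 (0.924 to 1.21) against 0.67 (0.524 to 0.843) in LF. The HF interval held 1, so the opposite directions were seen by ADAMTS1 UMIs and not by cells. Cells with ADAMTS1 held more UMIs of ENSCHIG00000012599 than expected in both libraries, at 1.28 (1.27 to 1.30) in HF and 1.08 (1.06 to 1.10) in LF. These intervals are too narrow, as many of its UMIs come from the same cell. NRIP1 had ratios HF over LF of 1.15 (0.827 to 1.61) and 0.628 (0.391 to 1.02) in the high and low mode, and ADAMTS5 of 3.25 (1.56 to 7.38) and 2.38 (0.813 to 9.47). Within the HF library NRIP1 stood at 1.62 (1.29 to 2.01) in the high mode at matched depth, and at 1.55 (1.23 to 1.93) by cells. Within LF it stood at 0.918 (0.715 to 1.16), and at 1.69 (1.18 to 2.34) in cells of 15000 UMIs or fewer. Whether the libraries differ more within one mode was not tested, since cells are not replicates.

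The ADAMTS1 ratio was lower in cells without a UMI of the 4 genes higher in ADAMTS1 cells, more so in UMIs than in cells. In cells without a UMI of FILIP1L, DCBLD2, CCDC80 or CD200, 70.6% of HF and 71.2% of the LF cells, ADAMTS1 was measured at 5.93 CPM in HF and 4.56 CPM in LF, with a ratio of 1.30 (1.04 to 1.63). In the cells with a UMI of any of them the levels were 25.2 and 9.19 CPM, with a ratio of 2.75 (2.31 to 3.28). As cells with a UMI per summed UMI of the cells used, these ratios were 2.45 (1.80 to 3.4) and 2.82 (2.11 to 3.80), with overlapping intervals. Over all cells, FILIP1L, DCBLD2, CCDC80 and CD200 had UMI ratios HF over LF of 3.02, 1.63, 2.94 and 1.29. These 4 genes were chosen on the same cells, so the split is a description.

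**Figure D5:**
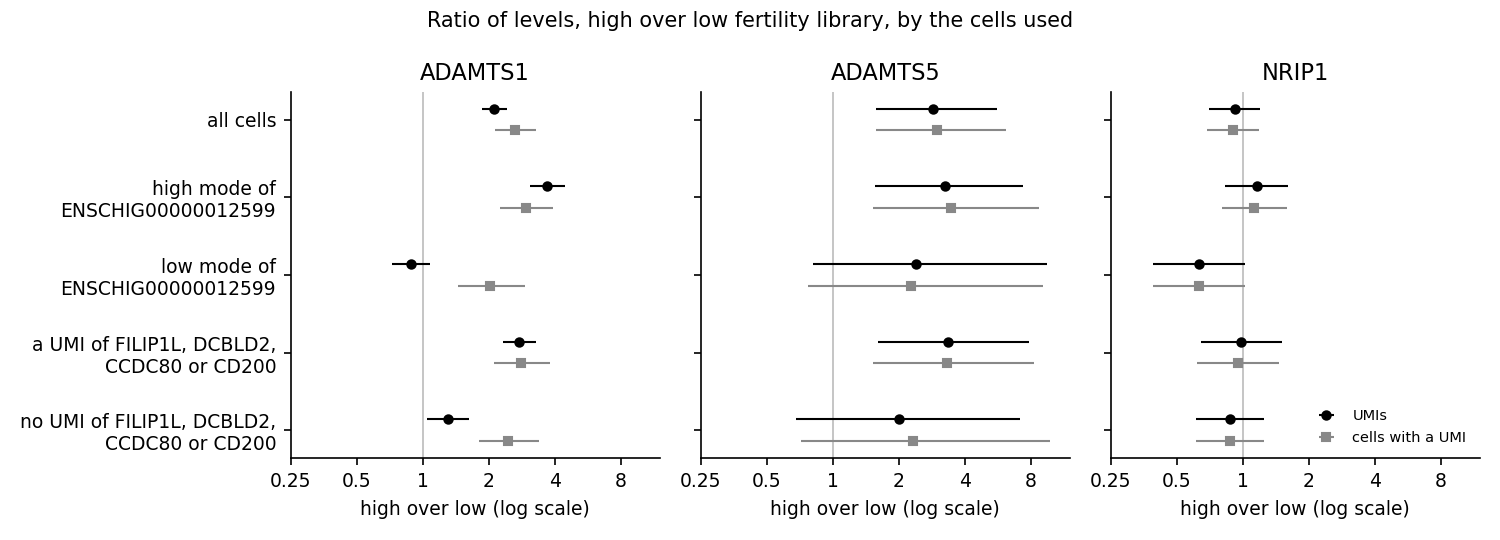
Ratio of ADAMTS1, ADAMTS5 and NRIP1 levels, HF over LF library (log scale), in all cells and in 4 subsets, with 95% counting intervals. Circles are from UMIs and squares from cells with a UMI, both per summed UMI of the cells used, so squares are not ratios of shares of cells. For ADAMTS1 the UMI ratio runs from 0.883 in the low mode of ENSCHIG00000012599 to 3.70 in the high mode, while the cell ratio stays between 2.03 and 2.95.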

How the data were processed

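The authors deposited natural log values (ln), genes by cells, and Cell Ranger 2.2.0 is listed per the submitters' processing notes. For build, annotation, cell filter and normalization the program or version was not given in the sources used here. The values equal the natural log of 1 plus 10000 times a gene's UMIs over the cell's total, so UMIs and totals were worked back: all 177610 values above 0 came out whole within 0.0001. The row after the 154 complete ones ends early and was left out. All cells were kept, no doublet caller was run, and cells were not clustered. Libraries were taken from column prefixes. CPM have exact Poisson, shares exact binomial and ratios exact conditional binomial intervals (Python 3.11.15, SciPy 1.17.1). Matched-depth ratios divide observed by expected UMIs or cells over 20 depth bins, with an exact Poisson interval of the observed number; the script was tested on simulated data. Named genes are the members, the 10 highest and 6 lowest genes in cells with a member found in at least 50 cells of each library, members of fixed lists, and 2 neighbouring rows on each side. Members and lists were chosen with earlier results of these data known; the subsets by mode or by 4 genes, APP's cell counts the cell-based ratios and the values without 1 cell were added after values were seen. Symbols were matched to RefSeq (ARS1.2), which held 110 of them. With 1 library per group no test was run. The result for 1 gene in cells with NRIP1 is not reported here.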

Additional observations from a re-analysis of the deposited data

Results flagged for a closer look

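In the cases given here a ratio lay clear of 1 on opposite sides in the libraries; the difference between the libraries was not tested, and intervals cover counting error within 1 library. ADAMTS1 was at 1.55 in high mode cells of ENSCHIG00000012599 in the high fertility library and at 0.346 in the low. By cells with a UMI the high fertility value was 1.06 (0.924 to 1.21). In cells of 15000 UMIs or fewer it was 1.14 (0.994 to 1.30), so both intervals held 1. The low fertility values were 0.67 (0.524 to 0.843) and 0.148 (0.106 to 0.201). In that library 1 cell held 35 of the 144 low mode UMIs. In cells with NRIP1, ADAMTS1 stood at 1.41 (1.02 to 1.89) in the high, on 43 UMIs, and at 0.462 (0.199 to 0.91) in the low fertility library, on 8 UMIs. In the high fertility library 15 of the 43 UMIs came from 1 cell, without which the ratio was 0.917 (0.61 to 1.33), so the opposite directions rest on that cell. In the other library 5 of the 8 UMIs came from 1 cell, and without it the ratio was 0.173 (0.0357 to 0.506). For cells with both genes, the interval of observed over expected cells held 1 in either library. ENSCHIG00000012599 was at 1.16 and 0.936 in cells with NRIP1. ENSCHIG00000010079 was at 1.04 (1.01 to 1.08) and 0.886 (0.833 to 0.941) in cells with ADAMTS1. Single cells held up to 693 and 1074 UMIs of the first gene and 43 and 47 of the second. Such UMIs are not independent, so these intervals are too narrow to place either gene clear of 1. By NRIP1 UMIs, the low fertility ratio in high mode cells was 0.918 (0.715 to 1.16), and 1.69 (1.18 to 2.34) in cells of 15000 UMIs or fewer.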

How the results depend on the processing

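The ADAMTS1 ratio high over low of 2.12 became 1.54 in cells of 15000 UMIs or fewer, 1.84 in cells below 7500 UMIs, 2.64 with UMIs capped at 1 per cell, 3.70 and 0.883 in the high and low mode of ENSCHIG00000012599, and 1.30 in cells without the 4 genes; NRIP1 became 0.628 in the low mode. Median-of-ratios scaling (1.12, or 0.16 on the log2 scale) gave 1.89 for ADAMTS1, 2.56 for ADAMTS5 and 0.817 for NRIP1, and moved the genes past 2-fold from 7 with high and 2 with low fertility above to 6 and 4. Shares moved with the number of UMIs kept: thinned to 5000 UMIs they were, in the high and low fertility library, 3.94% and 1.69% for ADAMTS1, 1.06% and 1.11% for NRIP1 and 0.328% and 0.121% for ADAMTS5, and unthinned 5.87% and 3.38%, 1.77% and 2.99%, and 0.704% and 0.359%. Below 7500 UMIs co-detection of ADAMTS1 and ADAMTS5 was 4.87 (1.00 to 14.2) in the high fertility library and 0 in the low, where it was also 0 at 15000 UMIs or fewer, and that of ADAMTS1 and NRIP1 was 0 in the low. No other co-detection ratio left its interval. The counts of 4 genes higher and 2 lower in cells with ADAMTS1 were 0 and 0 in cells of 15000 UMIs or fewer (29 genes usable) and below 7500 UMIs (6 usable), 1 and 0 with 30 expected UMIs (35 usable) or with exactly 1 ADAMTS1 UMI (50 usable), and 1 and 2 by cells; fewer usable genes account for part of this by construction. Directions turned in the low fertility library for CCDC80 (0.608), CBLB (0.902) and ENSCHIG00000007885 (1.00) in cells with ADAMTS1 of 15000 UMIs or fewer. Below 7500 UMIs the values counted as turned there were FILIP1L, DCBLD2, CD200 and CBLB (each 0) and ENSCHIG00000007885 (1.48). The low fertility depth bins below 7500 UMIs held 3, 3 and 8 cells with ADAMTS1. These are too few for a value of 0 to show a reversal. For NRIP1, IFT57 turned below 7500 UMIs (0.854), and ENSCHIG00000022046 turned in the high fertility library there (0.887) and by cells (0.981). ADAMTS1 in high fertility cells with NRIP1 turned to 0.917 without 1 cell. Of 470 recomputed values of named genes 360 stayed within their interval, 98 left it and 12 turned. Why values differ between these settings was not tested. No paired analysis was possible because the labels give 1 library per fertility level, and leaving out a library would leave no comparison.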
